A study of Mus musculus with 32 samples.

Results

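The genes described here are 41 neighbours of *Clic4* on mouse chromosome 4, listed by symbol because they lie within about 5 Mb of it. They are 41 of the 29511 genes of the count table and 41 of the 240 genes of that table within 5 Mb of *Clic4*, of which 174 are protein coding. All 41 symbols were found on chromosome 4 in GENCODE M21 (GRCm38), 9 on the side of lower and 32 on the side of higher coordinates, from *Zdhhc18* at 1.564 Mb below to *Ubr4* at 4.08 Mb above. *Clic4* itself, which encodes a chloride intracellular channel protein, spans chr4:135213969-135272814 on the minus strand and is not one of the 41.

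The data are 32 RNA libraries of lung or tumor tissue from female FVB/N hosts, either wildtype (WT) or constitutive *Clic4* knockout (KO). Control lungs came from mice without a tumor (4 KO, 4 WT), and lungs and primary tumors were taken 14 days after 6DT1 cells were placed in the mammary fat pad (6 KO and 6 WT of each). The 6DT1 line derives from an FVB mammary tumor and has an intact *Clic4* gene, so KO and WT hosts received the same implanted cells, and only the host cells of a tumor differ in genotype by design. Females entered the experiments at 6 to 8 weeks of age. The KO allele was made on a mixed background and then backcrossed to FVB/N, with microsatellites as the check of the background, and WT and KO females came from crosses of heterozygotes. Which samples were littermates, and which lung and tumor came from one mouse, is not in the labels.

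Genes that lie close together on a chromosome tend to be inherited together, because recombination between near positions is rare. In a line built by backcrossing for 1 allele, sequence next to that allele is therefore exchanged less often than sequence far from it or on other chromosomes, and a deletion can also act on the expression of neighbouring genes. Here every KO host lacked part of *Clic4* and may carry other sequence beside it, so these sources of a difference cannot be told apart.

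The 41 genes have no shared function. 7 act in RNA processing and translation, 7 in transcription and chromatin and 10 in signaling. A further 9 encode proteins of the endoplasmic reticulum, Golgi, lysosome, lipid handling or membranes, and 8 belong to the cytoskeleton, mitochondria, ubiquitin or matrix groups. Values are library-size scaled counts (CPM, with TMM factors over all 32 libraries), and a level can be compared between samples of 1 gene but not between genes. Log2 fold changes are KO over WT, with their standard error (SE), from edgeR's quasi-likelihood test, and a gene was called at a Benjamini-Hochberg FDR under 0.05 over all genes tested, with no limit on the fold. *Grhl3*, a transcription factor of surface epithelia, had too few counts to be tested (0 to 23 per sample), which left 40 genes.

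Total counts ranged from 4446323 to 8318711 per sample, and the 6 groups overlapped in depth. The markers matched the lung labels, since the summed FPKM (fragments scaled for length and library size) of 5 alveolar type 2 genes was 9874 to 14174 in lungs and 12.7 to 16.6 in tumors. In Control lungs, the summed FPKM of 4 B cell genes was 12.8 to 33.7 in KO and 35.2 to 49.4 in WT samples, and that of 5 endothelial genes 834 to 855 and 881 to 949. In the same lungs, 4 alveolar type 1 genes summed to 1038 to 1192 in KO and 1209 to 1322 in WT samples, and 4 adipocyte genes to 9.88 to 16.7 and 6.91 to 9.83. Of all genes tested, 7.57% had KO and WT ranges apart in Control lungs. At 14 days the KO and WT ranges overlapped for each of these lists. The B cell sum then had a median of 30.6 in KO and 24.6 in WT lungs. In 14-day lungs, 1 of 4 cardiac muscle genes was lower in KO at an FDR under 0.05, with a summed FPKM of 219 to 282 against 277 to 406. No gene of the other lists was called in lungs. The part of these lists in the differences below was not tested, and in bulk tissue fewer cells of a type and less RNA per cell cannot be told apart.

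*Clic4* checked the labels. Its level in Control lungs was 215, 206, 255 and 246 CPM in KO and 676, 627, 609 and 615 CPM in WT samples. In 14-day lungs it ranged from 222 to 280 CPM (median 242) in KO and from 587 to 867 CPM (median 637) in WT samples, so no KO lung reached a WT lung. The log2 fold changes were -1.45 (SE 0.11, FDR 1.73e-07) and -1.49 (SE 0.09, FDR 2.06e-09), and 2-sided exact permutation tests of log2(FPKM + 1) gave p = 0.0286 and p = 0.00216, the smallest these group sizes allow. KO lungs kept 36.5% of the WT level in Control and 35.7% in 14-day samples, and the counts are for the whole gene, while the allele lacks a single exon.

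*Clic4* KO and WT lungs differed at a minority of the flanking genes. Over all lungs (the mean of the Control and the 14-day difference), 6 of 40 genes tested were called, against 0.175% of the 16029 genes tested. *Sepn1*, *Camk2n1*, *Nbl1* and *Hp1bp3* were higher in KO lungs (4 genes, background 0.0998%), *Pnrc2* and *Zfp46* were lower (2 genes, background 0.0749%), and the other 34 genes did not pass the test. In Control lungs alone 2 genes were called (*Sepn1* and *Pnrc2*, background 0.0187%), and in 14-day lungs 5 (*Sepn1*, *Pnrc2*, *Zfp46*, *Camk2n1* and *Nbl1*, background 0.0936%). The genes had been listed with earlier results of these samples known, so these counts describe the list and do not test it.

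The promoters of the 3 genes whose KO and WT ranges did not overlap in either lung setting are shown here, since they differ in kind. The 250 bases before the RefSeq start sites (GRCm38.p6) are given 5′ to 3′ on the strand of the gene, with matches to GGGCGG or its complement CCGCCC, the core of the GC box bound by Sp factors, in capitals.
*Sepn1* (RefSeq Selenon, minus strand, chr4:134552167-134552416): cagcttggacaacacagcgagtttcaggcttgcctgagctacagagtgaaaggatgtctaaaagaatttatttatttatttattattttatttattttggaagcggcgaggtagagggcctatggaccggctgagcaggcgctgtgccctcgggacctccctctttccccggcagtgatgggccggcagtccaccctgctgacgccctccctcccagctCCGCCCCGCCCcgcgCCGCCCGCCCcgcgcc
*Pnrc2* (minus strand, chr4:135873847-135874096): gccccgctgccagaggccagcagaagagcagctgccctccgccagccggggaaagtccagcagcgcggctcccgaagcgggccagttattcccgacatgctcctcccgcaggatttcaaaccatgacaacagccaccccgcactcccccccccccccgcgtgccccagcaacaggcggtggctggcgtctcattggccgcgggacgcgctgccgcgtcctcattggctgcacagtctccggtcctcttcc
*Zfp46* (plus strand, chr4:136284426-136284675): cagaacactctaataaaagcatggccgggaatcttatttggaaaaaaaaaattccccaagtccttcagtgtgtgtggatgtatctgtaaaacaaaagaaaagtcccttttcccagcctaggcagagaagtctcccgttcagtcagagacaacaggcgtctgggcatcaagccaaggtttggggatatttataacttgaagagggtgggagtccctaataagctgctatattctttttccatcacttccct
The *Sepn1* promoter held 4 GC-box matches, all within its last stretch before the start, with 58.8% G and C. The *Pnrc2* promoter had 69.2% G and C, no GC-box match and 2 matches to CCAAT or its complement. The *Zfp46* promoter had 43.2% G and C and 1 match to TATAAA or its complement. Of the 32851 promoters of the RefSeq table cut to the same length, 32.7% held the GC box, 33.8% CCAAT and 12.4% TATAAA on either strand. Of the 58 of these promoters that belong to the flanking genes, 38 held the GC box, 20 CCAAT and 2 TATAAA. A RefSeq promoter was found for 39 of the 41 genes, so some have more than 1. The RefSeq table was not limited to genes with counts in these tissues, while nearly all listed genes had enough to be tested. The sets are therefore unlike, and their shares were not compared by a test. Matching letters are a description and not a measured binding site.

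*Sepn1*, 0.662 Mb below *Clic4*, encodes selenoprotein N, a glycoprotein of the endoplasmic reticulum that acts in calcium handling and is mutated in a form of congenital myopathy. In Control lungs its level was 41.9, 33.2, 41.8 and 40.8 CPM in KO and 28.5, 31.5, 26.3 and 26.01 CPM in WT samples. In 14-day lungs it ranged from 43.6 to 48.9 CPM (median 46.9) in KO and from 23.0 to 28.6 CPM (median 27.3) in WT samples. Every KO lung was above every WT lung of both settings. The log2 fold change was 0.49 in Control lungs (SE 0.08, FDR 0.0442), 0.80 in 14-day lungs (SE 0.07, FDR 7.57e-07) and 0.64 over all lungs (SE 0.05, FDR 3.45e-07), a rise to 1.56 times the WT level. The call in Control lungs was lost in 17 of the 20 fits that left out 1 lung, with log2 fold changes of 0.45 to 0.57, and stayed only without Lung-KO-Control replicate 2, Lung-WT-Control replicate 2 or Lung-WT-14-days replicate 5. The calls in 14-day lungs and over all lungs held in all 20.

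*Pnrc2*, 0.598 Mb above *Clic4*, encodes a coactivator of nuclear receptors that also links decapping of messenger RNA to nonsense-mediated decay. In Control lungs its level was 41.3, 40.8, 38.3 and 39.5 CPM in KO and 65.9, 51.1, 57.8 and 64.5 CPM in WT samples. In 14-day lungs it ranged from 35.3 to 43.3 CPM (median 41.2) in KO and from 61.2 to 78.0 CPM (median 67.2) in WT samples. No KO lung reached a WT lung in either setting. The log2 fold change was -0.59 in Control lungs (SE 0.09, FDR 0.00642), -0.75 in 14-day lungs (SE 0.07, FDR 1.93e-06) and -0.67 over all lungs (SE 0.06, FDR 3.33e-07), which left 62.9% of the WT level. In Control lungs the FDR rose to at most 0.056 when Lung-KO-Control replicate 3 or 4 or Lung-WT-Control replicate 1 was left out, with log2 fold changes of -0.65 to -0.55 over the 20 such fits. *Srsf10*, a splicing factor gene whose end lies 1009 bases from that of *Pnrc2* on the other strand, had a log2 fold change of -0.05 over all lungs (FDR 0.75).

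The deposited FPKM of *Pnrc2* gave another picture than its counts. In 14-day lungs the FPKM ranged from 24.7 to 142 in KO and from 41.4 to 152 in WT samples, and the ranges overlapped. The length implied by the 2 tables, unscaled CPM divided by FPKM, ran from 0.19 to 1.64 kb for *Pnrc2* over the 32 samples, an 8.60-fold spread. That was the widest of the 41 genes, and the median spread of the 40 tested was 1.29-fold. With limma on log2(FPKM + 1), *Pnrc2* was not called in lungs and its difference at 14 days was 0.04. The statements on *Pnrc2* therefore rest on the counts.

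*Zfp46*, 1.012 Mb above *Clic4*, encodes a zinc finger protein. In Control lungs its level was 22.3, 20.2, 18.4 and 23.8 CPM in KO and 27.3, 31.9, 27.4 and 29.5 CPM in WT samples. At 14 days the level ran from 20.9 to 24.4 CPM (median 21.5) in KO and from 25.6 to 33.0 CPM (median 31.6) in WT samples. All 10 KO lungs were below all 10 WT lungs. *Zfp46* had log2 fold changes of -0.46 in Control lungs (SE 0.10, FDR 0.108), -0.48 in 14-day lungs (SE 0.08, FDR 0.00829) and -0.47 over all lungs (SE 0.06, FDR 0.000469), or 72.4% of the WT level. On the log2(FPKM + 1) scale the difference over all lungs was -0.25 and limma did not call it (FDR 0.496).

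*Sepn1*, *Pnrc2* and *Zfp46* were the 3 members of 40 with no overlap of KO and WT ranges in the same direction in both lung settings, against 0.0686% of all genes tested. Ranges were apart for 6 of 40 members in Control lungs, where 7.57% of all genes were, and for 6 of 40 in 14-day lungs, where 0.53% were.

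**Figure D1:**
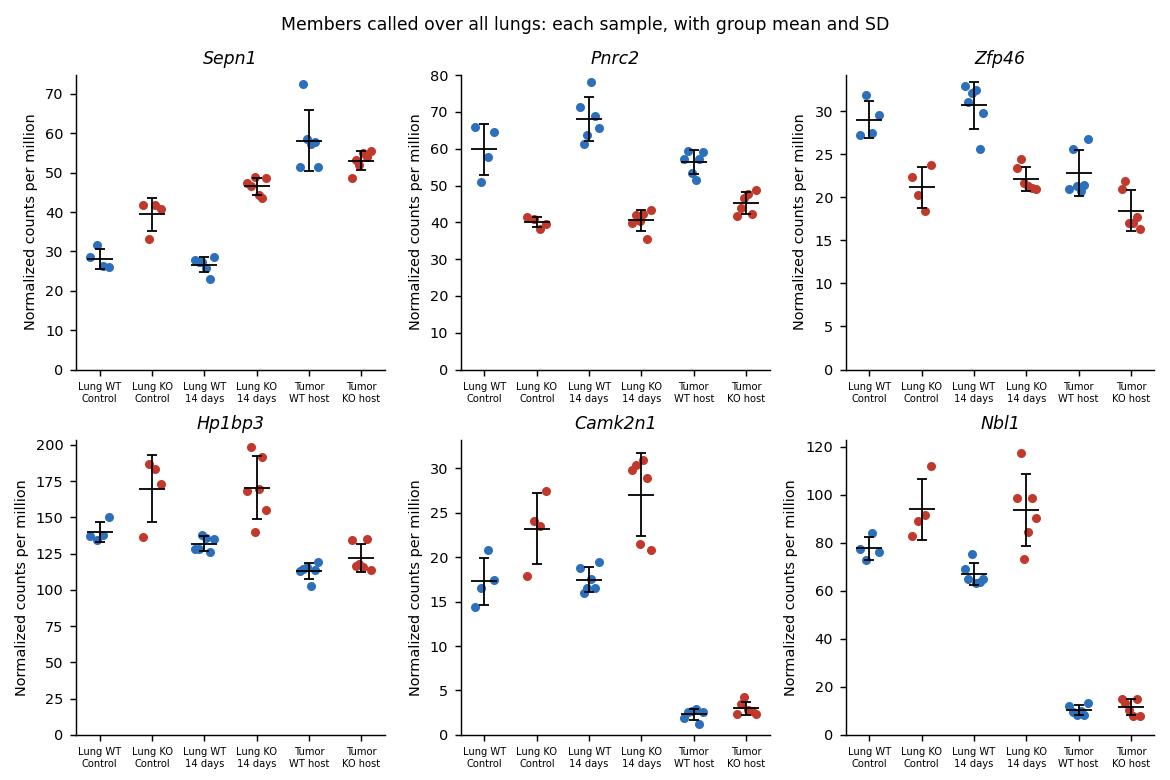
Each point is 1 sample and its height the TMM-scaled CPM of the gene, for the 6 members called over all lungs, with WT hosts in blue, KO hosts in red, and black bars for the group mean and SD. *Sepn1* is higher and *Pnrc2* and *Zfp46* are lower in every KO lung than in every WT lung, while single KO lungs of *Hp1bp3*, *Camk2n1* and *Nbl1* lie at the WT level.

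The other 3 called genes lie farther away, above *Clic4*, and for each of them 2 of the 10 KO lungs lay within the WT range. Their differences were not all smaller, since *Camk2n1* had a log2 fold change of 0.53 over all lungs and *Zfp46* one of -0.47. *Hp1bp3*, at 2.943 Mb, encodes a heterochromatin protein with likeness to linker histones. In Control lungs its level was 136, 187, 183 and 173 CPM in KO and 137, 134, 138 and 150 CPM in WT samples. At 14 days the level ran from 140 to 199 CPM (median 169) in KO and from 126 to 138 CPM (median 132) in WT samples. Only the 14-day ranges were apart, and over all lungs the log2 fold change was 0.32 (SE 0.06, FDR 0.0347). The call was kept in 9 of the 20 fits that left out 1 lung.

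*Camk2n1*, at 3.182 Mb, encodes an inhibitor of the calcium/calmodulin-dependent kinase II. In Control lungs its level was 17.9, 24.0, 23.5 and 27.5 CPM in KO and 14.4, 16.5, 20.8 and 17.4 CPM in WT samples. In 14-day lungs it ranged from 20.8 to 30.9 CPM (median 29.3) in KO and from 15.9 to 19.5 CPM (median 17.0) in WT samples. The 14-day ranges were apart, and the Control ranges overlapped through Lung-KO-Control replicate 1 and Lung-WT-Control replicate 3. The log2 fold change was 0.43 in Control lungs (SE 0.15, FDR 0.293), 0.62 in 14-day lungs (SE 0.12, FDR 0.0491) and 0.53 over all lungs (SE 0.10, FDR 0.0252). The call was kept in 6 of 20 fits without 1 lung at 14 days and in 15 of 20 over all lungs.

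*Nbl1*, at 3.809 Mb, encodes a secreted antagonist of bone morphogenetic proteins. In Control lungs its level was 83.0, 89.0, 91.8 and 112 CPM in KO and 77.5, 72.9, 84.3 and 76.3 CPM in WT samples. At 14 days the range was 73.1 to 118 CPM (median 94.6) in KO and 63.4 to 75.3 CPM (median 64.95) in WT samples. In each setting 1 KO lung lay among the WT lungs. *Nbl1* had log2 fold changes of 0.27 in Control lungs (SE 0.11, FDR 0.36), 0.48 in 14-day lungs (SE 0.09, FDR 0.037) and 0.38 over all lungs (SE 0.07, FDR 0.0283). The call was kept in 6 of 20 fits without 1 lung at 14 days and in 12 of 20 over all lungs. The sizes moved little in the 20 fits over all lungs, from 0.30 to 0.37 for *Hp1bp3* (FDR at most 0.0993), from 0.48 to 0.58 for *Camk2n1* (FDR at most 0.0669) and from 0.33 to 0.41 for *Nbl1* (FDR at most 0.0817), on the log2 scale.

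The KO lungs near the WT level were few and came back from gene to gene. Against the range of all 10 WT lungs, Lung-KO-Control replicate 1 lay inside for *Hp1bp3* (136 CPM, WT 126 to 150), *Camk2n1* (17.9 CPM, WT 14.4 to 20.8) and *Nbl1* (83.0 CPM, WT 63.4 to 84.3). Lung-KO-14-days replicate 3 lay inside for *Hp1bp3* (140 CPM) and *Nbl1* (73.1 CPM) and just above it for *Camk2n1* (21.4 CPM). Lung-KO-14-days replicate 6 lay inside for *Camk2n1* only, by a smaller margin than the rounding shows (20.8 CPM, as the highest WT lung). The other 7 KO lungs were above the WT range for all 3 genes, though Lung-KO-14-days replicate 4 was so for *Nbl1* by a small margin (84.4 CPM against a WT high of 84.3). For *Sepn1*, *Clic4*, *Pnrc2* and *Zfp46*, from 0.662 Mb below to 1.012 Mb above, each of the 10 KO lungs was outside the WT range, these 3 included. This is a description of single samples chosen after their values were seen, and its cause was not tested.

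**Figure D2:**
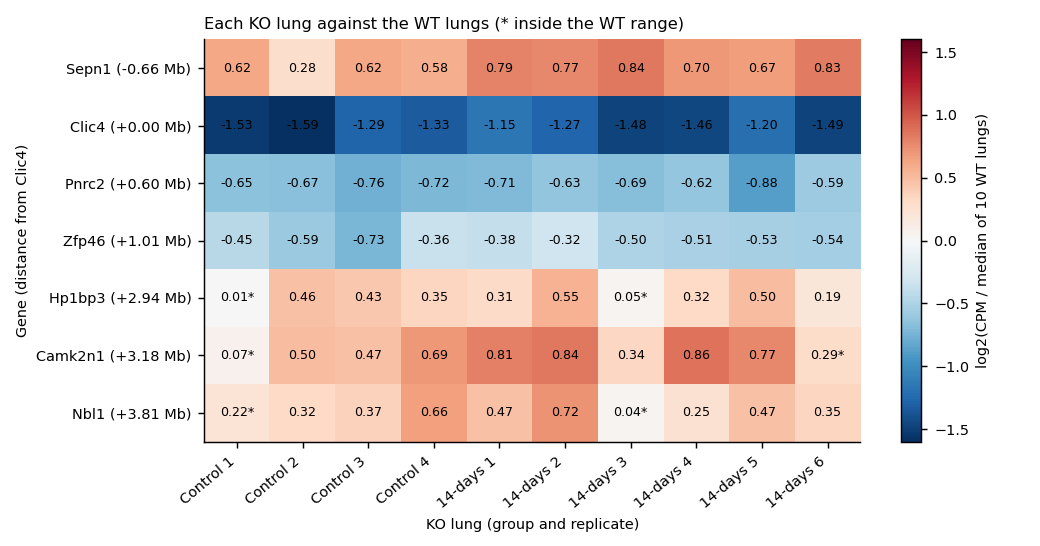
Each cell gives log2 of the CPM of 1 KO lung over the median of the 10 WT lungs, with genes ordered by distance from *Clic4* in Mb and an asterisk where the value lies inside the range of the WT lungs. *Clic4*, *Sepn1*, *Pnrc2* and *Zfp46* have no asterisk, and the 3 farther genes have 2 each, in Control replicate 1 and 14-day replicates 3 and 6.

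The 3 listed genes nearest to *Clic4* on each side were not called. Below it, *Runx3*, a transcription factor of lymphoid cells, lies 0.036 Mb away, *Syf2*, a spliceosome component, 0.276 Mb, and *Man1c1*, a Golgi mannosidase, 0.51 Mb. Above it, *Srrm1*, a splicing coactivator, lies 0.048 Mb away, *Rcan3*, a regulator of calcineurin, 0.139 Mb, and *Nipal3*, a membrane protein of the NIPA family, 0.173 Mb. None of the 6 passed the test in Control lungs, 14-day lungs or tumors, where single genes within 1.012 Mb did.

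In Control lungs *Runx3* was at 4.43, 4.19, 4.63 and 5.42 CPM in KO and 4.46, 6.09, 5.15 and 7.14 CPM in WT samples. *Syf2* was at 45.4, 47.1, 51.9 and 52.2 CPM in KO and 55.1, 51.1, 56.5 and 54.9 CPM in WT samples. *Man1c1* was at 29.0, 21.7, 20.8 and 24.7 CPM in KO and 26.7, 30.8, 35.3 and 29.7 CPM in WT samples. For these 3 genes on the lower side the ranges overlapped. *Srrm1* was at 75.6, 78.4, 85.4 and 78.6 CPM in KO and 79.5, 94.3, 84.5 and 90.9 CPM in WT samples. *Rcan3* was at 21.6, 21.7, 20.9 and 21.3 CPM in KO and 23.4, 26.9, 29.4 and 25.7 CPM in WT samples. *Nipal3* was at 103, 98.8, 86.7 and 90.7 CPM in KO and 87.9, 109, 106 and 91.7 CPM in WT samples. Of these 6 only *Rcan3* had ranges that did not touch, with a log2 fold change of -0.30 (FDR 0.307). In Control lungs 7.57% of all genes tested had ranges apart.

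At 14 days *Runx3* ranged from 2.13 to 5.36 CPM (median 4.14) in KO and from 3.10 to 5.92 CPM (median 5.39) in WT lungs. *Syf2* ranged from 43.1 to 64.1 CPM (median 51.3) in KO and from 44.3 to 63.3 CPM (median 49.6) in WT lungs. *Man1c1* ranged from 22.1 to 28.2 CPM (median 27.2) in KO and from 23.6 to 32.3 CPM (median 28.0) in WT lungs. All 3 pairs of ranges overlapped. *Srrm1* ranged from 81.2 to 97.7 CPM (median 91.6) in KO and from 85.1 to 101 CPM (median 93.0) in WT lungs. *Rcan3* ranged from 19.7 to 25.8 CPM (median 21.8) in KO and from 17.3 to 24.1 CPM (median 22.2) in WT lungs. *Nipal3* ranged from 98.3 to 114 CPM (median 108) in KO and from 83.2 to 110.0 CPM (median 101) in WT lungs. The Control gap of *Rcan3* was not seen here (log2 fold change 0.03), and the difference between the settings was not called (FDR 0.522).

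By role, the calls over all lungs fell in 4 of the 5 groups, where 0.175% of all genes tested were called. Of 7 genes of RNA processing and translation 1 fell (*Pnrc2*) and 6 did not pass, with *Srrm1* at -0.09, *Rpl11* at -0.01 and *Hnrnpr* at 0.10 (log2 fold changes). Of 6 tested transcription and chromatin genes *Hp1bp3* rose, *Zfp46* fell and 4 did not pass, among them *Runx3* at -0.30, *Id3*, an inhibitor of helix-loop-helix factors, at 0.35, and *E2f2*, a cell cycle transcription factor, at 0.49. Of 10 signaling genes *Camk2n1* and *Nbl1* rose and 8 did not pass, from the receptor kinase gene *Ephb2* at -0.14 and *Rcan3* at -0.13 to *Wnt4*, which encodes a secreted Wnt ligand, at 0.57.

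Of 9 genes of the endoplasmic reticulum, Golgi, lysosome, lipid and membrane group *Sepn1* rose and 8 did not pass, with *Man1c1* at -0.22, *Lypla2*, an acyl-protein thioesterase, at -0.13, and *Akr7a5*, an aldo-keto reductase, at 0.22. None of the 8 cytoskeleton, mitochondria, ubiquitin and matrix genes passed, and they lay between *Hspg2* (perlecan, a basement membrane proteoglycan) at -0.12 and *Mtfr1l* at -0.12 on one side and *Usp48* at 0.08 and *Capzb* (an actin capping subunit) at 0.29 on the other. The medians of the 5 groups, in the order given, were -0.075, 0.15, 0.28, -0.003 and -0.050, against -0.003 over all genes tested. *Wnt4* (8 to 67 counts per sample), *Ephb2* (3 to 89) and *Runx3* (12 to 73) had few counts. Of these 3, *Wnt4* had an unadjusted p under 0.05 over all lungs and missed the threshold after adjustment over all genes (edgeR FDR 0.311). 7 members, among them *Rpl11*, *Cdc42*, *Stmn1* and *Fuca1*, share at least 200 bases at 90% identity or more with another annotated transcript, so their counts are less certain. None of the 6 called genes does.

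Control and 14-day lungs came from different mice, so their differences can be set side by side. Of the 40 genes, 27 (67.5%) moved in the same direction in both, against 53.4% of all genes tested. The log2 fold changes of the 2 settings had a Pearson r of 0.71 over the 40 genes and of 0.50 over the 34 genes not called, where 21 had the same sign, against 0.05 over all genes. Genes of 1 stretch of chromosome in the same mice are not independent, so these are descriptions without a test. The genes were also listed with earlier results of these samples known, which can itself raise the agreement. Leaving out the called genes does not remove that choice. No member was called in the interaction of genotype and tumor in lungs (0 of 40, and 0 also by DESeq2 and by limma on FPKM), where 0.00624% of all genes were called, although 9 of 40 had an unadjusted p under 0.05 against 8.53% of all genes. The largest interactions were those of *Ephb2* (-0.69, FDR 0.71) and *Akr7a5* (0.56, FDR 0.438).

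By distance, the calls over all lungs stopped within 5 Mb of *Clic4*. Among tested genes of chromosome 4, 3 of 36 within 1 Mb were called (8.33%), 1 of 31 from 1 to 2 Mb (3.23%), 3 of 73 from 2 to 5 Mb (4.11%) and 0 of 98 from 5 to 10 Mb. Of 793 genes beyond 5 Mb on the chromosome none was called by edgeR, of which 10.8% had an unadjusted p under 0.05, and of 15016 genes on other chromosomes 20 were (0.133%). The share with an unadjusted p under 0.05 was 38.9% within 1 Mb, 12.9% from 1 to 2 Mb, 27.4% from 2 to 5 Mb, 16.3% from 5 to 10 Mb and 11.5% on other chromosomes. It did not fall steadily with distance. In Control lungs alone these shares were 33.3%, 12.9%, 20.5% and 12.2%, against 11.4% on other chromosomes. In 14-day lungs they were 25%, 25.8% and 21.9% up to 5 Mb and 7.14% from 5 to 10 Mb, against 8.25% on other chromosomes, and bins of 1 Mb ran from 11.1% to 26.3% within 5 Mb and varied more from 5 to 10 Mb, from 0 of 36 genes (5 to 6 Mb) to 2 of 4 (7 to 8 Mb).

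Over all lungs, the median absolute log2 fold change was 0.15 within 1 Mb, 0.10 from 1 to 2 Mb, 0.10 from 2 to 5 Mb and 0.11 from 5 to 10 Mb, against 0.08 on other chromosomes. The same medians were 0.21, 0.14, 0.17 and 0.15 in Control lungs, against 0.13, and 0.15, 0.16, 0.11 and 0.080 in 14-day lungs, against 0.092. The list holds 40 of the 140 genes tested within 5 Mb, and the other 100 held 20 genes with an unadjusted p under 0.05, against 18 of 40 (45.0%) on the list, where 11.6% of all genes tested had one. Since the list was made with results known, the share over all 140 genes (27.1%) is the less selective one.

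**Figure D3:**
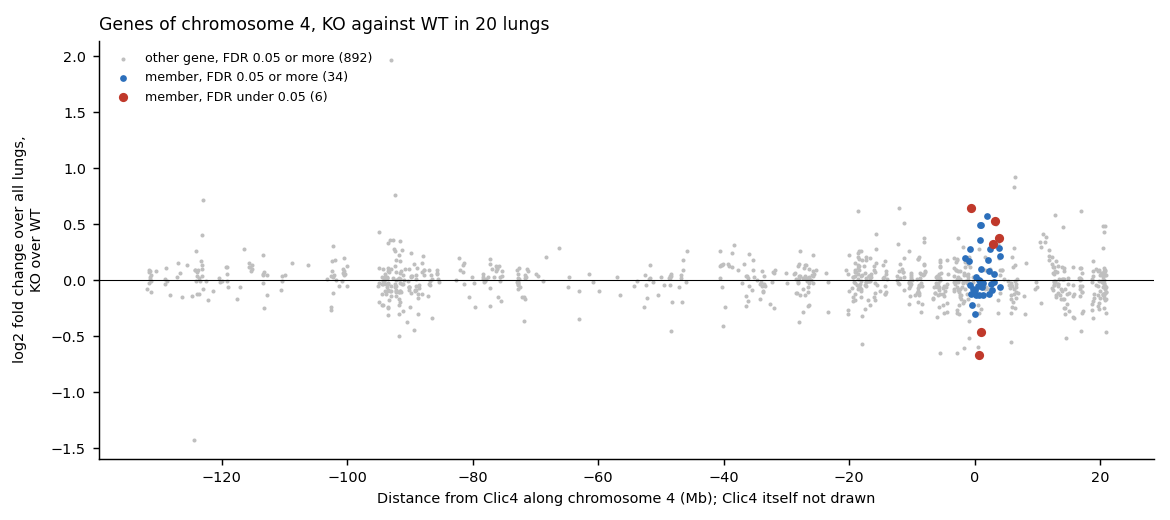
Each point is 1 tested gene of chromosome 4 reported here, placed by its distance from *Clic4* in Mb (x axis) and its log2 fold change of KO over WT over all 20 lungs (y axis). The 6 called members (red) lie within 5 Mb of *Clic4*, and no gene farther along the chromosome was called, among them 1 gene near 2 on the log2 scale.

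In primary tumors KO and WT hosts differed at few of the flanking genes. *Clic4* itself ranged from 248 to 280 CPM (median 263) in tumors of KO hosts and from 296 to 325 CPM (median 306) in tumors of WT hosts, a log2 fold change of -0.21 (SE 0.05, FDR 0.0343). The sign of *Clic4* held under every alternative run, and its call was kept by DESeq2 (FDR 0.000936) but lost without a filter (FDR 0.115), under the replicate block (FDR 0.106), by limma and in the fit of all 32 samples (FDR 0.131). Of 40 members 2 were called, *Pnrc2* and *Fuca1*, which is 5.0% against 2.51% of the 13830 genes tested. Ranges were apart for 2 of 40 (*Pnrc2* and *Rcan3*), against 1.95% of all genes. Of all 134 genes tested within 5 Mb 8 were called (5.97%), against 6 of 678 farther along chromosome 4 (0.885%) and 2.56% on other chromosomes. An unadjusted p under 0.05 was found for 28.6% of the genes within 1 Mb, 37.9% from 1 to 2 Mb, 12.9% from 2 to 5 Mb and 9.38% from 5 to 10 Mb, against 15.7% on other chromosomes.

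*Pnrc2* ranged from 41.8 to 48.9 CPM (median 45.3) in tumors of KO hosts and from 51.5 to 59.3 CPM (median 57.3) in tumors of WT hosts. The ranges were apart in the same direction as in lungs, and the log2 fold change was -0.31 (SE 0.07, FDR 0.0172). The call was lost under the replicate block (FDR 0.0729), and on FPKM, where the implied length of *Pnrc2* varied, limma gave the opposite sign without a call (0.69, FDR 0.609). *Fuca1*, 0.648 Mb above *Clic4*, encodes the lysosomal alpha-L-fucosidase. It ranged from 37.7 to 52.8 CPM (median 47.3) in tumors of KO hosts and from 29.8 to 39.7 CPM (median 32.7) in tumors of WT hosts, and 1 tumor of each kind reached into the other range. *Fuca1* had a log2 fold change of 0.49 (SE 0.09, FDR 0.00885), and in lungs *Fuca1* stood at 42.6 to 49.9 CPM in KO and 45.5 to 50.7 CPM in WT Control samples with no call. The summed FPKM of 4 macrophage genes was 85.6 to 192 in tumors of KO hosts and 75.7 to 130 in tumors of WT hosts, with none of the 3 tested called. Of 6 T cell genes, with a summed FPKM of 22.9 to 40.5 and 10.3 to 37.1, 1 of 5 tested was called higher in KO hosts. The part of either list in the *Fuca1* result was not tested.

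The other lung calls were not made in tumors. *Sepn1* ranged from 48.7 to 55.5 CPM (median 53.6) in tumors of KO hosts and from 51.4 to 72.4 CPM (median 57.5) in tumors of WT hosts, and the ranges overlapped (log2 fold change -0.12, FDR 0.508). *Zfp46* ranged from 16.3 to 21.9 CPM (median 17.3) against 20.7 to 26.8 CPM (median 21.4), with 2 tumors of KO hosts inside the WT range (-0.30, FDR 0.185). *Hp1bp3* ranged from 114 to 135 CPM (median 117) against 103 to 119 CPM (median 114), with a log2 fold change of 0.12 (FDR 0.399). These 3 genes had levels in tumors of the same order as in lungs.

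*Camk2n1* and *Nbl1* were low in tumors, where a difference was less easy to detect. *Camk2n1* ranged from 2.38 to 4.24 CPM in tumors of KO hosts and from 1.25 to 2.93 CPM in tumors of WT hosts (log2 fold change 0.38, SE 0.24, FDR 0.487). *Nbl1* ranged from 7.87 to 15.0 CPM and from 8.30 to 13.3 CPM (log2 fold change 0.18, SE 0.20, FDR 0.716). Of the 6 listed genes nearest to *Clic4*, *Rcan3* alone had separate ranges in tumors, where 1.95% of all genes tested did. It ranged from 26.2 to 31.3 CPM in tumors of KO hosts and from 31.6 to 41.1 CPM in tumors of WT hosts. *Rcan3* did not pass the test (-0.26, FDR 0.121). *Asap3*, a GTPase activating protein of the Arf family, had the highest uncalled value (0.75, FDR 0.086).

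**Figure D4:**
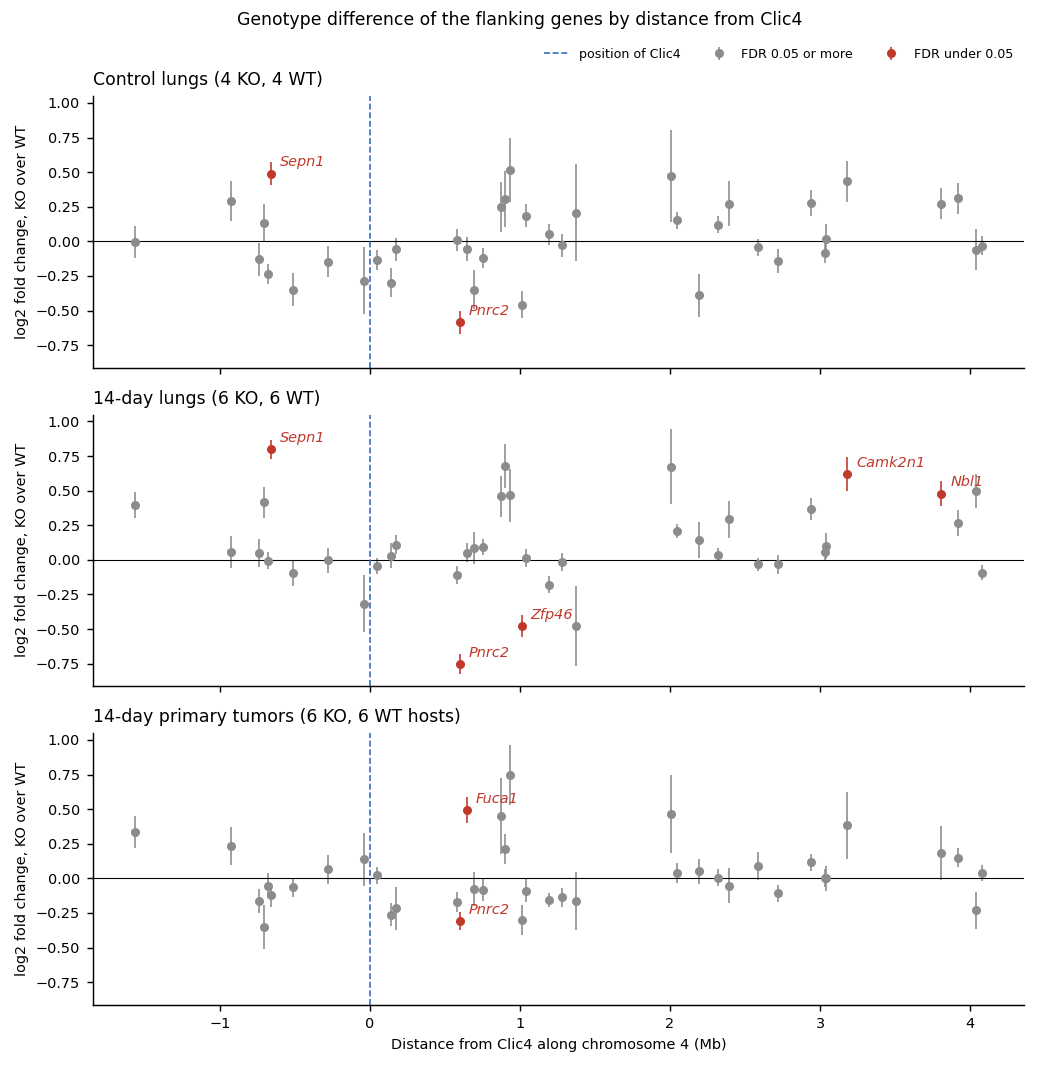
Each point is 1 of the 40 tested members, placed by its distance from *Clic4* in Mb, with its log2 fold change of KO over WT and SE (bars) in Control lungs, 14-day lungs and tumors, and called genes in red. *Sepn1* is high in both lung panels and near 0 in tumors, and *Pnrc2* is low in all 3 panels, which hold counts and not FPKM, on which its sign in tumors and 14-day lungs turned.

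Tumors and 14-day lungs were compared in 1 fit of all 32 samples, which tests whether the genotype difference itself differs between the tissues. 4 of 40 members were called, against 1.06% of the 16825 genes tested. *Sepn1* had a genotype difference lower by 0.93 on the log2 scale in tumors (-0.93, SE 0.11, FDR 3.77e-06), with KO lungs above WT lungs and KO-host tumors within the range of WT-host tumors or below it. *Pnrc2* had the opposite sign (0.43, SE 0.09, FDR 0.0162), its drop being smaller in tumors than in lungs. Tumors hold implanted cells with the same genotype in both hosts, and the share of host RNA was not measured.

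The 2 other genes called in this comparison had been called in neither tissue. *Paqr7*, 0.704 Mb below *Clic4*, encodes a membrane progestin receptor. It ranged from 36.8 to 56.2 CPM (median 40.97) in KO and from 28.4 to 41.2 CPM (median 31.96) in WT lungs at 14 days, and from 6.29 to 11.9 CPM (median 9.88) in KO-host and 9.58 to 15.4 CPM (median 12.2) in WT-host tumors. The ranges overlapped in both tissues, and the difference between the tissues was -0.78 (SE 0.19, FDR 0.0331). It was not called in 8 of the 32 fits that left out 1 sample, namely Lung-KO-14-days replicate 3 or 4, Lung-WT-14-days replicate 2, 3 or 5, PT-KO-14-days replicate 2 or PT-WT-14-days replicate 3 or 4 (FDR up to 0.0749).

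*Akr7a5*, 4.038 Mb above *Clic4*, encodes an aldo-keto reductase that detoxifies aldehydes. It ranged from 7.63 to 9.57 CPM (median 8.98) in KO and from 4.09 to 7.14 CPM (median 6.72) in WT lungs at 14 days, with no overlap. In tumors it ranged from 7.93 to 12.1 CPM (median 10.4) in KO and from 9.27 to 13.6 CPM (median 12.2) in WT hosts. The difference between the tissues was -0.74 (SE 0.17, FDR 0.0234), at 24 to 75 counts per sample, and it lost the call without PT-KO-14-days replicate 6 (-0.65, FDR 0.0519). In Control lungs *Akr7a5* was at 7.38, 5.91, 7.18 and 8.42 CPM in KO and 7.72, 7.88, 6.99 and 7.45 CPM in WT samples, with ranges that overlapped. *Paqr7* in Control lungs was at 50.7, 37.9, 39.7 and 42.1 CPM in KO and 35.0, 43.01, 42.1 and 35.4 CPM in WT samples, which overlapped as well. *Fuca1* missed the threshold of this comparison (0.43, FDR 0.0572).

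**Figure D5:**
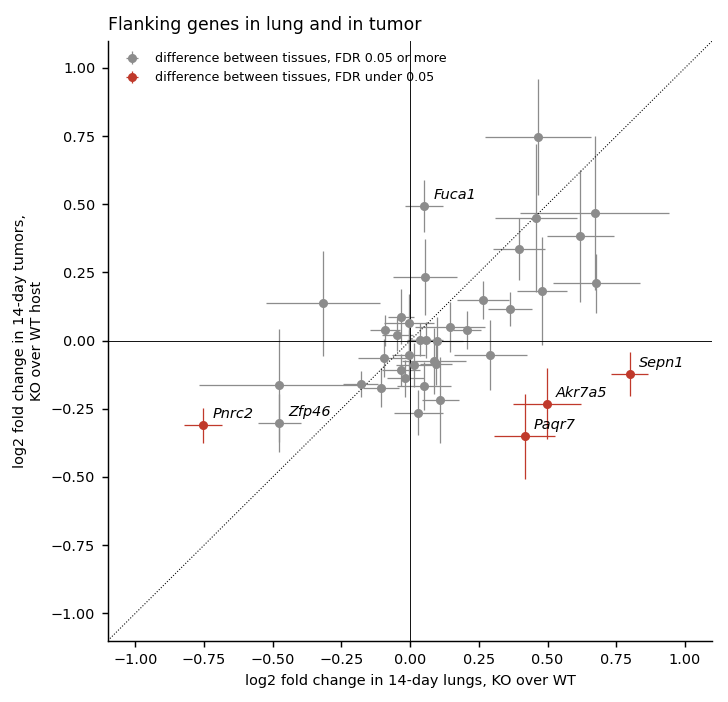
Each point is 1 member, with its log2 fold change of KO over WT in 14-day lungs (x axis) and in tumors (y axis), SE as bars, the dotted line for equal differences, and in red the 4 genes whose difference between the tissues was called. *Sepn1*, *Akr7a5* and *Paqr7* lie to the right and below the dotted line, and *Pnrc2* lies above it.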

How the data were processed

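The authors aligned reads to GRCm38 (mm10) with STAR and quantified genes with RSEM, and the expected counts they deposited are whole and not normalized. FPKM, also from RSEM, were scaled by the authors for length and library size. Rows were matched by Ensembl identifier to GENCODE M21, and distance from *Clic4* is measured between the nearest ends of 2 genes. 29197 of 29511 identifiers had a position.

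Expected counts were tested with edgeR 4.0.16 (R 4.3.3, TMM, filterByExpr, quasi-likelihood F test) in 1 fit of the 20 lungs, 1 of the 12 tumors and 1 of all 32 samples, each with 1 mean per group and no block. P-values were adjusted by Benjamini-Hochberg over all genes tested, and an FDR under 0.05 was called. The SE is the log2 fold change divided by the root of the F statistic. The depth of 4446323 to 8318711 counts limits genes with few counts. Alternatives were DESeq2 1.42.0, RLE factors, other filters and thresholds, a replicate block over KO and WT or over lung and tumor, limma 3.58.1 on log2(FPKM + 1) and log2(FPKM + 0.1) for genes with an FPKM of at least 0.5, GC offsets, other sample sets, other distance bins and fits without 1 sample. The fits were tested on simulated data. Copies were sought with minimap2 2.31. The replicates are numbered in the labels, and the study describes the samples of a group as independent animals. Whether a lung and a tumor came from the same animal is not stated. No 2 samples of a group agreed within sampling noise.

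The members and gene lists were chosen with earlier results of these data known. Named are members called in any comparison except the interaction, the 3 nearest on each side, the 2 lowest and highest of each function group and *Clic4*. The rule also held for other genes within 5 Mb called over all lungs, and 1 such gene is counted in the totals by distance but not reported or drawn here.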

Additional observations from a re-analysis of the deposited data

Results flagged for a closer look

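The genotype difference of 4 members differed between 14-day tumors and 14-day lungs in the fit of all 32 samples. The differences of the log2 fold changes were -0.93 for *Sepn1* (higher in 6 of 6 KO lungs than in any WT lung), -0.78 for *Paqr7*, -0.74 for *Akr7a5* (higher in 6 of 6 KO lungs) and 0.43 for *Pnrc2* (lower in 6 of 6 KO lungs and 6 of 6 KO-host tumors).

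In 90 group ranges of the 15 members that were called in a comparison or lie nearest to *Clic4*, 6 samples lay far from the rest of their group by Dixon's test, where chance gives about 4.5. *Sepn1* was at 33.2 CPM in Lung-KO-Control replicate 2 (next 40.8) and at 72.4 CPM in PT-WT-14-days replicate 2 (next 58.6). *Fuca1* was at 39.7 CPM in PT-WT-14-days replicate 1 (next 33.4), and *Runx3* at 12.8 CPM in the same tumor (next 8.97). *Paqr7* was at 41.2 CPM in Lung-WT-14-days replicate 6 (next 32.8), and *Hp1bp3* at 103 CPM in PT-WT-14-days replicate 4 (next 113). None of the KO lungs that lay at the WT level for *Hp1bp3*, *Camk2n1* or *Nbl1* was among them.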

How the results depend on the processing

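Over all lungs 6 members were called, and 3 under the replicate block (0.0437% of all genes tested), 2 at an FDR of 0.25 with a 1.5-fold limit (0.237%), 11 at an FDR of 0.25 without it (2.18%), and 1 (*Sepn1*) by limma on log2(FPKM + 1) or log2(FPKM + 0.1) (0.0199%). For 14-day lungs the 5 calls became 2 under the replicate block (0.0374%), 3 with GC offsets and the block (0.0564%), 3 with the 12 compared lungs alone (0.0395%), 9 with DESeq2 (0.424%), 11 at an FDR of 0.25 (0.861%) and 1 by limma with either pseudocount (0.0199% and 0.0249%). For Control lungs the 2 calls became 1 with DESeq2 (0.268%), without a filter (0.00713%), with the 8 compared lungs alone (0.0395%) and at an FDR of 0.25 with 1.5-fold (0.231%), and 0 under the replicate block and by limma. DESeq2 gave no adjusted p over all lungs for *Sepn1*, *Zfp46* and *Camk2n1*, which its independent filtering removed. For tumors the 2 calls became 7 at an FDR of 0.25 (10.5%), 1 with the 1.5-fold limit (*Asap3*, 3.85%), 1 under the block with or without GC offsets (*Fuca1*, 1.98% and 1.86%), 4 in a fit of all 32 samples (4.53%) and 0 by limma. For tumor minus lung the 4 calls became 2 under the block of KO and WT (*Sepn1* and *Fuca1*, 0.588%, or *Sepn1* and *Pnrc2* with GC offsets, 0.765%) and 2 by limma (*Sepn1* and *Akr7a5*, 0.434% and 0.364%). The interaction stayed at 0 members under every alternative run.

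Whether the replicate numbers pair KO with WT samples is not in the labels. Correlations of deviations between same-numbered KO and WT samples ran from -0.28 to 0.23. Such correlations cannot show whether same-numbered mice were littermates or were handled together, so a pairing stays unknown. For same-numbered lungs and tumors of 14 days the correlations were 0.037 to 0.16 in KO hosts and -0.012 to 0.055 in WT hosts, and 4 of 6 KO lungs and 1 of 6 WT lungs correlated best with the tumor of their own number. A replicate block joining these lungs and tumors, added after the data were seen, kept all 4 calls for tumor minus lung (*Sepn1*, *Pnrc2*, *Akr7a5* and *Paqr7*, the last with an FDR of 0.0489). With the replicate block, over all lungs *Pnrc2*, *Sepn1* and *Zfp46* were called and *Camk2n1* (FDR 0.0713), *Nbl1* (FDR 0.137) and *Hp1bp3* (FDR 0.149) were not, and their log2 fold changes were 0.51, 0.37 and 0.31.

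Fits without 1 sample called 3 to 7 members over all lungs, 3 to 7 in 14-day lungs, 0 to 2 in Control lungs, 0 to 0 for the interaction, 2 to 3 in tumors and 3 to 5 for tumor minus lung. *Pnrc2*, *Sepn1* and *Zfp46* were called over all lungs in each of the 20. *Camk2n1* lost its call over all lungs without Lung-KO-Control replicate 2, 3 or 4 or Lung-WT-Control replicate 1 or 2. *Nbl1* lost it without any of these or without Lung-WT-Control replicate 4, Lung-KO-14-days replicate 5 or Lung-WT-14-days replicate 4. *Hp1bp3* lost it without Lung-KO-Control replicate 2, 3 or 4, Lung-WT-Control replicate 1, 2 or 3, Lung-KO-14-days replicate 5 or Lung-WT-14-days replicate 1, 2, 3 or 4. In 14-day lungs *Camk2n1* kept its call only without Lung-KO-14-days replicate 3 or 6, Lung-KO-Control replicate 1 or 4 or Lung-WT-Control replicate 1 or 3. *Nbl1* kept it only without Lung-KO-14-days replicate 3 or 4, Lung-KO-Control replicate 1 or 4, Lung-WT-14-days replicate 3 or Lung-WT-Control replicate 3.

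The share of genes within 5 Mb called over all lungs was 5.0%. It was 12.1% at an FDR of 0.25, 2.86% with the 1.5-fold limit, 2.86% under the block, 3.06% without a filter, 0.575% by limma with either pseudocount, 8.33% within 1 Mb, 12% for the nearest 25 tested genes, and 2.78% to 5.71% without 1 lung. *Pnrc2* turned to 0.038 and 0.035 in 14-day lungs and to 0.69 and 0.70 in tumors by limma on FPKM, beside the spread of its implied length, and why that length varies was not tested. *Clic4* in tumors kept its sign, and its call with DESeq2, RLE factors, at least 10 counts in every sample, GC offsets, an FDR of 0.25 and in 3 of 12 fits without 1 tumor, and lost the call in the others (log2 fold changes -0.21 with the 1.5-fold limit, -0.20 without a filter, -0.21 under the block, -0.20 with block and GC offsets, -0.25 and -0.25 by limma, -0.21 in the fit of all samples, -0.22 to -0.19 without 1 tumor). In lungs *Clic4* ranged from -1.53 to -1.41 at 14 days, -1.51 to -1.40 in Control samples and -1.50 to -1.44 over all lungs, and 1.19 to 1.31 for tumor minus lung. GC offsets and the GC offsets with block were added after the data were seen. Genes with a median under 50 counts per sample (*Runx3*, *Wnt4*, *Ephb2*, *Akr7a5*) have few reads behind each value.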

Other observations

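*Snora73b*, a small nucleolar RNA gene 2.86 Mb below *Clic4* that is not on the list, was looked at after its values were seen. The 10 WT lungs lay between 35.5 and 48.9 CPM. KO Control lungs were at 43.9, 18.1, 37.2 and 15.5 CPM, and the 14-day KO lungs at 15.8, 38.1, 47.4, 18.3, 15.6 and 31.2 CPM. Of the 10 KO lungs 4 lay inside the WT range, Lung-KO-Control replicates 1 and 3 and Lung-KO-14-days replicates 2 and 3, and the other 6 lay below it. Lung-KO-Control replicate 1 and Lung-KO-14-days replicate 3 were also inside the WT range for *Hp1bp3* and *Nbl1* on the other side of *Clic4*. Lung-KO-Control replicate 3 and Lung-KO-14-days replicate 2 were above it for both genes. This match belongs to 1 gene picked for its values, and how many other genes show or lack it is not given. Its cause was not tested. The log2 fold change over all lungs was -0.65 (SE 0.19, FDR 0.209 by edgeR), so the gene did not pass the test, and reads of such a short RNA are poorly sampled by a library made from messenger RNA.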
